A study of Mus musculus with 18 samples.

Results

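The genes examined encode the ion channels through which sensory neurons and epithelia register heat, cold, acid, extracellular ATP and pressure. They are the TRP channels of the TRPA, TRPC, TRPM and TRPV groups, the ATP-gated P2X receptors, the acid-sensing ASIC channels, the mechanically gated Piezo channels and the HCN pacemaker channels. They were taken by gene symbol, whatever their values, from 2 tables of RNA-seq read counts, for the mouse colon and for the spinal dorsal horn. In all, 39 such genes were found among 15410 symbols, and 37 of them are described here. Each table held 36 of the 37 and 35 were in both; Trpv5 was in the colon table only and Trpm8 in the dorsal horn table only.

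The study asked how blockade of the PD-1 receptor acts in mice with bone cancer pain. Each tissue had 3 groups with 3 libraries each, 18 libraries in all, and all carry the label wild type. Sham mice received IgG, mice with cancer received IgG, and other mice with cancer received nivolumab, an antibody that blocks PD-1 and was raised against the human receptor. These groups are called sham, cancer and nivolumab, and a library goes by its group and number. The labels name no tumour line, bone, strain, sex, age or dose. They also do not say whether the libraries of a group were separate animals, so the p-values measure the spread between these libraries, which may be technical.

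In the body these channels sit in different places. Trpv1, Trpa1, Trpm8, P2rx3, Asic3 and Piezo2 are made mainly by sensory neurons whose cell bodies lie in the dorsal root ganglia, outside the spinal cord; their proteins travel along axons into the dorsal horn, while most of their RNA stays in the ganglion. Others, such as Hcn2, Asic1, Trpm3 and Trpc5, are made by neurons of the cord itself, P2rx4 and P2rx7 by microglia and immune cells among others, and Trpv6, Trpm6 and Trpm5 by epithelial cells of the gut.

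A dorsal horn library held 21855085 to 29071908 counts and a colon library 20896854 to 30803957. Levels are given as CPM, counts scaled to the TMM-adjusted library size. The detection floor was taken as 3 counts, which equalled 0.103 to 0.132 CPM (dorsal horn) and 0.0963 to 0.151 CPM (colon). After removal of genes with low counts, 13609 dorsal horn genes and 13445 colon genes were tested, among them 34 and 30 of the channel genes described. The biological coefficient of variation is the spread between libraries of a group beyond counting error; it was 0.17 for the dorsal horn and 0.376 for the colon. A gene was called changed at an adjusted p under 0.05 (edgeR quasi-likelihood test, Benjamini-Hochberg over all genes tested), and every adjusted p below is from that test unless another is named. Both tissues are mixtures of cells, so that fewer cells of a type and less RNA per cell cannot be told apart.

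The dorsal horn libraries differed in one respect that touches these genes directly. Scn10a, a sodium channel of dorsal root ganglion neurons, had 0, 2 and 2358 counts in sham, 3, 3 and 2321 counts in cancer and 7106, 5984 and 10814 counts in nivolumab. Each nivolumab library had 5984 counts or more, and sham 3 and cancer 3 stood apart from the other libraries of their groups, which had at most 3. The 12 ganglion neuron markers summed to 161 to 673 CPM in sham, 141 to 717 CPM in cancer and 1252 to 2013 CPM in nivolumab. In sham 1, 4 of the 12 were at 0, in cancer 2, 3 were, and in the 5 libraries with Scn10a none was. Mrgprd, a receptor of non-peptidergic nociceptors, was at 0 in all 4 libraries that nearly lacked Scn10a. Prph and Calca, which spinal motor neurons also express, had at least 83.1 and 25.8 CPM in every library. Schwann cell markers, the glia of peripheral nerve, had mean log2 CPM of 2.87, 4.34 and 3.61 in sham, 3.32, 2.32 and 3.54 in cancer and 5.14, 4.84 and 4.84 in nivolumab. Skeletal muscle markers varied as well. They summed to 22.8, 4.42 and 141 CPM in sham, 6.61, 241 and 5.95 CPM in cancer and 73.4, 752 and 380 CPM in nivolumab. Markers of the labelled tissues were present throughout: the dorsal horn neuron markers had mean log2 CPM between 5.42 and 5.95, and the colon epithelium markers between 9.05 and 10.06.

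In sham dorsal horn the most abundant of the 37 channel RNAs per kilobase of exon was Hcn2, which encodes a pacemaker channel of spinal and sensory neurons, at 117 ± 29.7 CPM per kb (SD, n = 3). Asic1, the main acid sensor of central neurons, followed at 18.5 ± 1.83, and Asic2, its partner subunit, at 14 ± 1.12 CPM per kb. Trpm3, a channel opened by heat and by neurosteroids, stood at 9.16 ± 0.535, P2rx5 at 8.41 ± 0.156 and Trpm2, a channel gated by ADP-ribose under oxidative stress, at 8.4 ± 0.371 CPM per kb. From Hcn2 to Trpm3 the ranges of neighbours in this order did not overlap, whereas P2rx5 and Trpm2 did overlap. The next gene, P2rx6, was at 6.27 ± 0.588 CPM per kb.

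The order in the colon was different. Trpm4, a calcium-activated channel that passes monovalent cations, was first in sham colon at 26.1 ± 9.01 CPM per kb, level with P2rx4, an ATP receptor of epithelial and immune cells, at 25.7 ± 2.02 CPM per kb. Then came the epithelial channels Trpm6, for magnesium uptake, at 11.1 ± 3.0, and Trpv6, for calcium uptake, at 8.36 ± 4.61 CPM per kb, the ubiquitous channel-kinase Trpm7 at 6.49 ± 1.14 and Piezo1, the Piezo channel of non-neuronal cells, at 5.03 ± 2.15 CPM per kb. Trpm4 and P2rx4 overlapped in their ranges, as did each neighbouring pair from Trpm6 to Piezo1. Trpm7 was close in both tissues, at 5.7 ± 0.263 CPM per kb in sham dorsal horn.

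**Figure D1:**
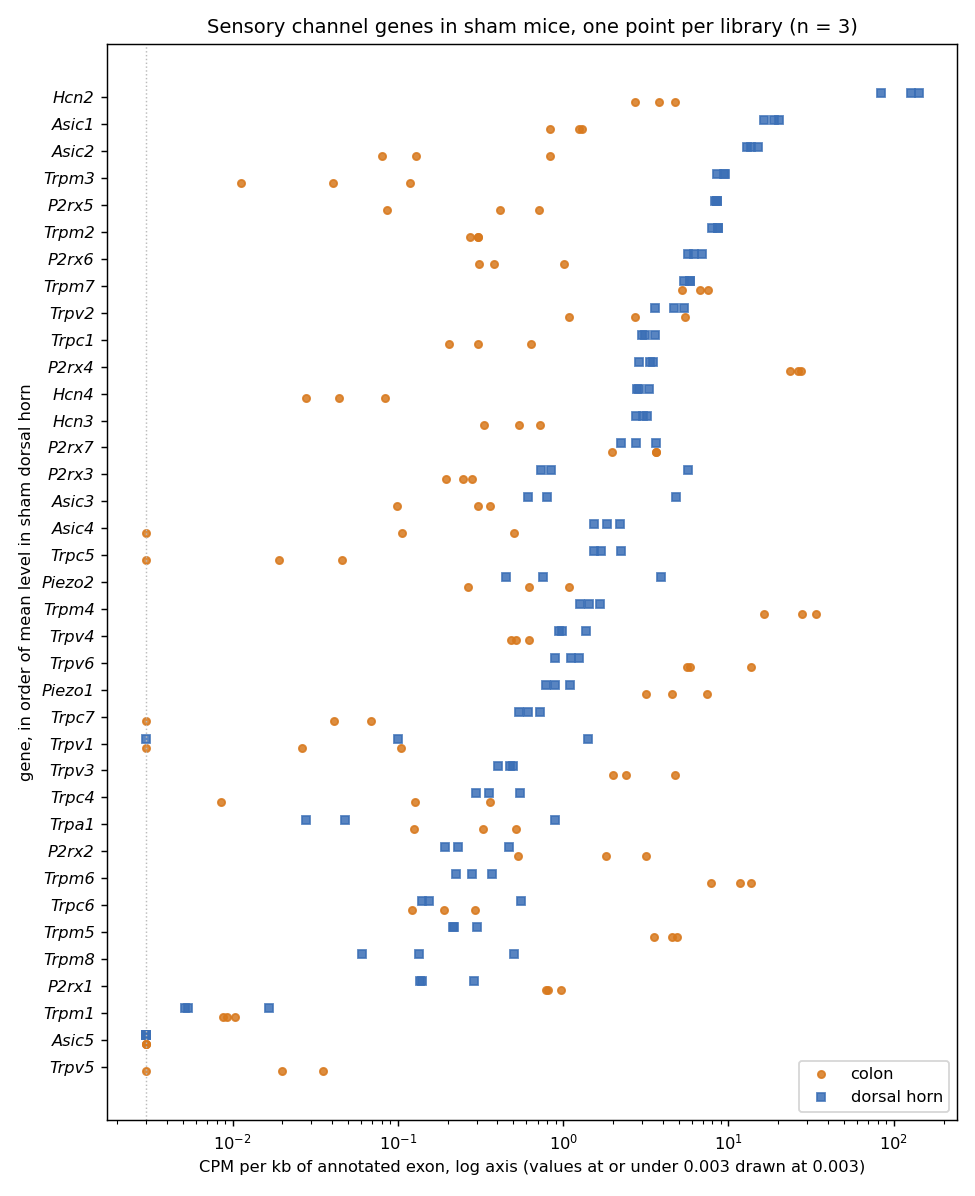
Level of each channel gene in the sham libraries, as CPM per kilobase of annotated exon on a log axis, with 1 point per library (colon, circles; dorsal horn, squares; 3 libraries each) and genes ordered by mean level in the dorsal horn. Hcn2 leads in the dorsal horn at 117 CPM per kb and Trpm4 in the colon at 26.1, and Trpv1, P2rx3, Asic3, Piezo2, Trpa1 and Trpm8 each have 1 dorsal horn library far above the other 2.

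Genes at the bottom of the range were not tested. Asic5, a bile acid sensitive relative of the ASICs, had 0 counts in all 9 dorsal horn libraries and in 8 of the 9 colon libraries, with 4 counts in colon nivolumab 3. Trpm1, known from retinal bipolar cells, had 2 to 11 counts per dorsal horn library and 0 to 6 per colon library. In the colon, Hcn4, Trpc5, Trpc7 and Trpv5 also fell below the filter: Hcn4 reached 0.513 CPM, Trpc7 0.612 CPM and Trpc5 0.230 CPM at most, and Trpv5, the renal relative of Trpv6, had 2 counts in sham 1, 3 in sham 2 and 0 in the other 7 libraries.

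Of the 34 channel genes tested in the dorsal horn, 9 were higher in all 5 libraries that held Scn10a than in the other 4 (4.76% of all genes tested), and 0 were lower in all 5 (2.08%). They were Trpv1, Trpa1, Trpm8, P2rx3, P2rx2, Asic3, Piezo2, Trpc6 and Trpv2. Since the 5 libraries are 1 sham, 1 cancer and all 3 nivolumab libraries, this split crosses the study's groups; it was drawn from these libraries' own counts and is a description with no test.

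Trpv1, the channel for noxious heat and capsaicin, had 0.37, 0 and 5.2 CPM in sham, 0.489, 0 and 13.8 CPM in cancer and 29.2, 22.1 and 34.6 CPM in nivolumab. Trpa1, the channel for mustard oil and other reactive irritants, had 0.206, 0.118 and 3.79 CPM in sham, 0.245, 0 and 7.41 CPM in cancer and 16.5, 9.59 and 22.7 CPM in nivolumab. In both genes sham 3 and cancer 3 were far above their own groups and below every nivolumab library. The remaining 4 libraries had 0 to 14 counts of Trpv1 and 0 to 7 counts of Trpa1, at or little above the floor of 3. Trpm8, the cold and menthol channel, had 0.288, 0.631 and 2.39 CPM in sham, 0.385, 0.495 and 1.9 CPM in cancer and 7.32, 9.0 and 10.7 CPM in nivolumab.

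P2rx3, the ATP receptor subunit of small-diameter sensory neurons, had 2.34, 2.05 and 15.9 CPM in sham, 1.57, 2.09 and 19.1 CPM in cancer and 52.2, 30.3 and 67.8 CPM in nivolumab. Asic3, the acid sensor of muscle and joint afferents, had 1.48, 1.93 and 11.7 CPM in sham, 0.804, 1.1 and 9.44 CPM in cancer and 25.9, 22.9 and 28.6 CPM in nivolumab. Piezo2, the transducer of touch and proprioception, was the most abundant of this set in CPM, with 7.77, 12.9 and 66.7 CPM in sham, 5.91, 11 and 42.6 CPM in cancer and 154, 110.3 and 188 CPM in nivolumab. All 3 showed the same order, with sham 3 and cancer 3 between the libraries without Scn10a and the nivolumab libraries, and unlike Trpv1 they were detected in every library.

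The other 3 genes of the set varied less. Trpc6, a diacylglycerol-gated channel, had 0.781, 0.71 and 2.81 CPM in sham, 0.699, 0.761 and 2.43 CPM in cancer and 4.94, 3.01 and 6.58 CPM in nivolumab. For P2rx2, whose product assembles with P2X3, the values were 0.493, 0.592 and 1.21 CPM in sham, 0.769, 0.266 and 1.46 CPM in cancer and 1.95, 1.2 and 2.52 CPM in nivolumab, and nivolumab 2 lay below sham 3 and cancer 3. Trpv2, a channel of large sensory neurons and of phagocytes, had 21, 16.1 and 24.2 CPM in sham, 21, 19.4 and 28.2 CPM in cancer and 34.6, 29.9 and 35.1 CPM in nivolumab, so that the lowest of the 5 libraries with Scn10a exceeded the highest of the others, 24.2 against 21.0 CPM.

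**Figure D2:**
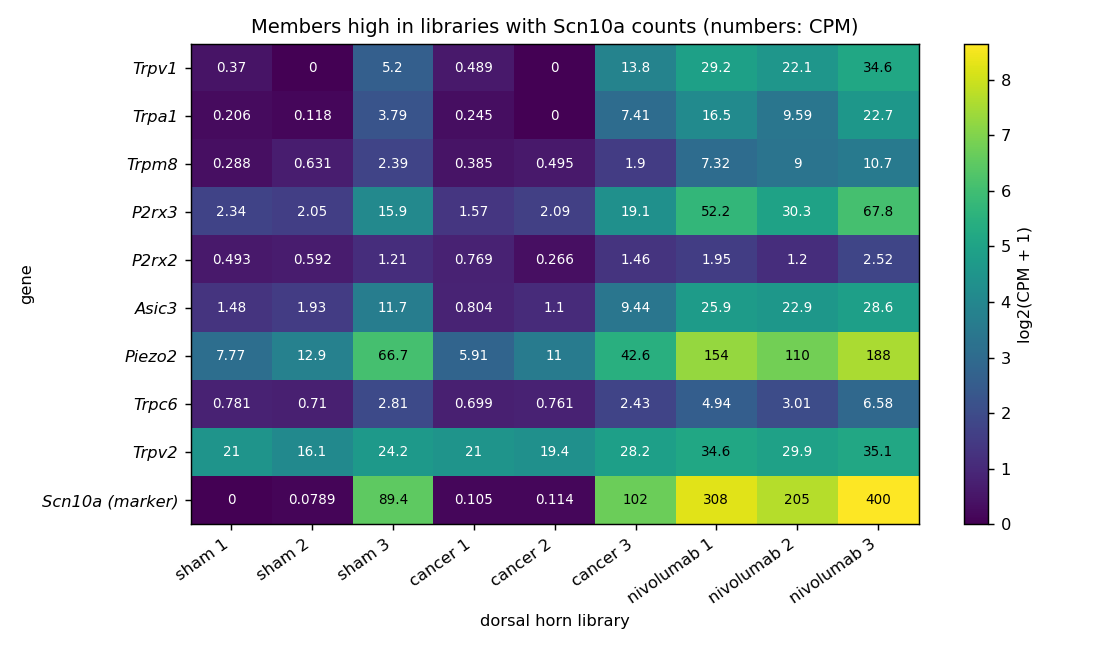
CPM of the 9 channel genes that were higher in all 5 dorsal horn libraries with Scn10a than in the other 4, with Scn10a itself in the bottom row. Columns are libraries, colour is log2(CPM + 1) and the printed numbers are CPM. In Trpv1, for example, sham 3 (5.20 CPM) and cancer 3 (13.8 CPM) stand between the other sham and cancer libraries (0 to 0.489 CPM) and nivolumab (22.1 to 34.6 CPM).

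Within the 5 libraries, the level of each gene per 100 CPM of Scn10a shows whether it kept pace with that ganglion marker. P2rx3 varied little, with 17.8 in sham 3, 18.7 in cancer 3 and 17, 14.8 and 17 in nivolumab. Asic3 had 13.1 in sham 3, 9.22 in cancer 3 and 8.42, 11.2 and 7.16 in nivolumab. Trpa1 had 4.24 in sham 3, 7.24 in cancer 3 and 5.35, 4.68 and 5.69 in nivolumab. Trpv1 was lowest in sham 3: 5.81 in sham 3, 13.4 in cancer 3 and 9.48, 10.8 and 8.66 in nivolumab. Piezo2 was instead highest there, with 74.6 in sham 3, 41.6 in cancer 3 and 50.2, 53.9 and 47.1 in nivolumab. For Trpm8 the values were 2.67 in sham 3, 1.85 in cancer 3 and 2.38, 4.4 and 2.67 in nivolumab. Of these 6 genes P2rx3 was the steadiest and Trpm8 the most variable, and in Trpv1, Trpa1 and Piezo2 all nivolumab libraries lay between sham 3 and cancer 3. P2rx2 had 1.36 in sham 3, 1.42 in cancer 3 and 0.633, 0.585 and 0.629 in nivolumab. Hcn2, an abundant gene of the cord, had 301 in sham 3, 271 in cancer 3 and 131, 182 and 98.4 in nivolumab. In P2rx2, Hcn2 and, by a smaller margin, P2rx3, the nivolumab libraries were all below sham 3 and cancer 3. The same held for Asic1, Asic2, P2rx5 and P2rx6. Scn10a itself was at 89.4 CPM in sham 3, 102 CPM in cancer 3 and 308, 205 and 400 CPM in nivolumab. P2rx2 had 0.266 to 0.769 CPM in the libraries that nearly lacked Scn10a. The part of RNA from other cells in these ratios was not tested. With 1 library each for sham and cancer, these ratios are given as a description, without a test.

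**Figure D3:**
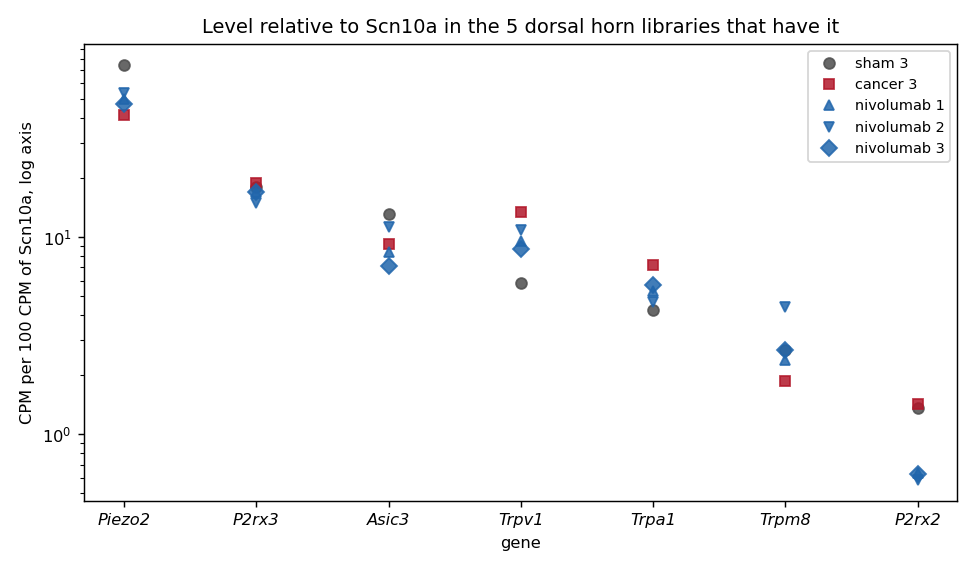
Level of 7 channel genes per 100 CPM of Scn10a, on a log axis, in the 5 dorsal horn libraries that held Scn10a (sham 3, cancer 3 and nivolumab 1 to 3; 1 point per library). P2rx3 spans 14.8 to 18.7, whereas P2rx2 falls from 1.36 and 1.42 in sham 3 and cancer 3 to between 0.585 and 0.633 in nivolumab.

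Promoter sequence is shown for 3 of the genes that were high together, Trpv1, Trpm8 and Asic3, and for Trpv6, described under the colon, because it was near 0 in 1 group of that tissue. Each run is the 250 bases before the RefSeq start of the gene (GRCm38.p6), 5′ to 3′ on the gene's strand. Capitals mark the match to a motif named beside it. These genes and motifs were chosen after their values had been seen.
Trpv1 (chr11:73233899-73234148, plus strand; capitals, RUNX core TGTGGT): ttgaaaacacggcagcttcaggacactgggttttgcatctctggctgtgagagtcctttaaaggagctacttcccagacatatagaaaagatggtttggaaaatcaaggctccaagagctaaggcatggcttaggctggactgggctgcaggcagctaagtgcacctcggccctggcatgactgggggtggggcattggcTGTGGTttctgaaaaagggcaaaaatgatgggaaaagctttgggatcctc
Trpm8 (chr1:88306485-88306734, plus strand; capitals, LIM homeodomain core TAATTA): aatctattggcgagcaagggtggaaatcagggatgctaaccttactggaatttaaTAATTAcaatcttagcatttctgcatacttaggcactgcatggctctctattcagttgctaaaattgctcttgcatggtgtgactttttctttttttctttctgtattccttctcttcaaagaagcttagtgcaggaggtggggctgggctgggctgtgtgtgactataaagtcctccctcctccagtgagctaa
Asic3 (chr5:24413201-24413450, plus strand; capitals, RUNX core TGTGGT): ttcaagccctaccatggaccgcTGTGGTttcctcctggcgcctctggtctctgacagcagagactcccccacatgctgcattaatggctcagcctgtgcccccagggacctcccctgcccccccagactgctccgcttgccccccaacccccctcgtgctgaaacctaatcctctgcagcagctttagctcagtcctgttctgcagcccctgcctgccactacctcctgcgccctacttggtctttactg
Trpv6 (chr6:41636406-41636655, minus strand; no capitals): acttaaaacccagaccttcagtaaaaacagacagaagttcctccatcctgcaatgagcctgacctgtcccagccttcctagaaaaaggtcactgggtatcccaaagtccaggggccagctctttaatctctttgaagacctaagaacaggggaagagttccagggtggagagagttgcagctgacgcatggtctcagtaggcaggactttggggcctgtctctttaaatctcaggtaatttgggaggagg

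The searches, on both strands, were for TGTGGT, the core bound by RUNX factors, TAATTA, a core bound by LIM homeodomain factors, TTTATG, a core of CDX factors of the gut, and GGTTCA, a core of the vitamin D receptor's site. No 2 of these motifs overlap in the sequences shown. TGTGGT is in 14.04% of the 32817 promoter windows of this length in the RefSeq table, TAATTA in 4.845%, TTTATG in 10.77% and GGTTCA in 8.84%. Among 35 windows of 29 channel genes, TGTGGT is in 4, TAATTA in 1, TTTATG in 1 and GGTTCA in 7. A match is a description of these letters and not a bound site; none of the 4 motifs is in the Trpv6 window. The Trpm8 window ends at base 88306734, inside the longer Trpm8 model of GENCODE M21 that starts at base 88277661. The Asic3 window also runs past the start of its model there, at base 24413392.

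In the dorsal horn, mice with cancer did not differ from sham in any channel gene by the test: 0 of 34 were called (0.323% of all genes tested were), 2 reached an unadjusted p under 0.05 (13.1% of genes), and DESeq2, run as an alternative, called 1 (2.65% of its genes), Hcn3. The members' median log2 fold change was 0.02, against 0.01 over all genes. The libraries of both groups did not overlap in 2 genes (16.8% of genes), 1 higher in cancer (8.33%) and 1 lower (8.43%).

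The higher one was Hcn3, which encodes a pacemaker channel subunit, with 11.5, 12.6 and 13.3 CPM in sham and 15.7, 17.7 and 15.7 CPM in cancer, a log2 fold change of 0.40 ± 0.10 (SE), adjusted p = 0.149 (DESeq2 adjusted p = 0.0480). The lower one was Trpm5, at 1.4, 1.38 and 1.93 CPM against 0.524, 1.33 and 0.485 CPM (-1.0 ± 0.44 (SE), adjusted p = 0.37). Its counts were 11 to 51 per library. Tssc4 shares 220 exon bases with Trpm5 on the opposite strand. The Tssc4 mean was 49.97 CPM in sham and 40.01 CPM in cancer (-0.32 ± 0.11 (SE), adjusted p = 0.281). The part of Tssc4 reads in the Trpm5 values was not tested. P2rx6, a P2X subunit that works mainly in heteromers, had the next smallest p (27.5, 22.9 and 24.7 against 19.6, 22.9 and 20.4 CPM; -0.25 ± 0.11 (SE), adjusted p = 0.383). With Scn10a in 1 library of each group, the standard errors of the ganglion channels were wide here: 1.31 ± 1.79 (SE) for Trpv1 and 0.14 ± 1.19 (SE) for P2rx3.

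Nivolumab against cancer gave the largest number of calls in the dorsal horn. Of 34 channel genes, 5 were called (17.2% of all genes tested were): Trpm8 rose (1, against 8.63% of all genes) and Trpm3, Trpm2, P2rx5 and Trpc5 fell (4, against 8.6%). The share called was thus near that of genes at large. At an unadjusted p under 0.05 there were 15 (34.2% of genes). Single libraries mattered: the number called was 9 without sham 3, 3 without sham 1, cancer 1, cancer 2 or nivolumab 2, and 2 without nivolumab 1 or nivolumab 3. The members' median log2 fold change was 0.10, against 0.000207 over all genes, and libraries did not overlap in 19 genes (40.1% of genes), of which 12 were higher (20.6%) and 7 lower (19.5%).

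Trpm3 fell. Its libraries had 209, 229 and 233 CPM in sham, 207, 213 and 208 CPM in cancer and 158, 172 and 169 CPM in nivolumab. Every nivolumab library was below every other library, and the log2 fold change against cancer was -0.33 ± 0.06 (SE), adjusted p = 0.00699. Trpm2, which in the cord is expressed by microglia and by neurons, had 99.3, 107 and 108 CPM in sham, 103, 111 and 112 CPM in cancer and 78.8, 89.2 and 85.4 CPM in nivolumab, again with no overlap (-0.36 ± 0.07 (SE), adjusted p = 0.00778). Both kept this call when the mean of the 12 ganglion markers was added to the fit as a covariate (-0.37, adjusted p = 0.0086 for Trpm3; -0.41, adjusted p = 0.00744 for Trpm2), and in each of the 19 alternatives tried. They also fell against sham, Trpm3 by 0.43 and Trpm2 by 0.31 on the log2 scale (adjusted p = 0.00627 and 0.0231). Against sham, Trpm2 missed the threshold in 6 of the 19 alternatives (without sham 1, sham 2, sham 3, nivolumab 1 or nivolumab 3, and without both sham 3 and cancer 3) and Trpm3 in 1.

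P2rx5 had 20.4, 19.7 and 20.3 CPM in sham, 19.6, 21.9 and 22.8 CPM in cancer and 17.5, 18 and 16.5 CPM in nivolumab, a difference of -0.30 ± 0.09 (SE), adjusted p = 0.042 between nivolumab and cancer. Trpc5, a calcium-permeable channel of central neurons, had 8.51, 11.3 and 7.7 CPM in sham, 14.6, 9.93 and 10.7 CPM in cancer and 7.28, 8.32 and 5.03 CPM in nivolumab (-0.77 ± 0.23 (SE), adjusted p = 0.0444). In both, the 3 nivolumab libraries were below the 3 cancer libraries; in Trpc5 they overlapped with sham. These 2 calls were the least stable: P2rx5 missed the threshold in 11 of 19 alternatives, among them the fit with the ganglion covariate (adjusted p = 0.0603), and Trpc5 in 8, also with that covariate (adjusted p = 0.244). Trpm8 missed it in 5.

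The gene that rose was among those that followed Scn10a. Trpm8, with the values above, differed by 3.31 ± 0.79 (SE), adjusted p = 0.0275, and by 1.57 (adjusted p = 0.0146) with the covariate. Without sham 3 and cancer 3 the Trpm8 difference was 4.35. Those 2 libraries were left out for their Scn10a counts, so for the genes that follow Scn10a a larger difference was fixed by that choice, and the calls it adds are given as a description. The covariate and the groups are correlated in these libraries, so that a fit with it also rests on sham 3 and cancer 3.

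The remaining ganglion channels had large differences with wide errors: 2.94 ± 1.06 (SE), adjusted p = 0.106 for Piezo2, 2.80 ± 1.13 (SE), adjusted p = 0.135 for Asic3, 2.74 ± 1.20 (SE), adjusted p = 0.161 for P2rx3, 2.71 ± 1.62 (SE), adjusted p = 0.283 for Trpa1 and 2.62 ± 1.70 (SE), adjusted p = 0.321 for Trpv1. In each of these 5 the nivolumab libraries were above all cancer libraries. With the replicate number as a block in the fit the number of channel genes called was 11 (22.5% of genes), and the calls gained were Piezo2 (3.48, adjusted p = 0.0287), Asic3 (3.63, adjusted p = 0.0333), P2rx3 (3.53, adjusted p = 0.0271), P2rx2 (1.31, adjusted p = 0.0436), P2rx7, Trpc6 and Trpv2, while P2rx5 was lost (adjusted p = 0.0542). Sham 3 and cancer 3 share a number, so the block also takes up what those 2 libraries have in common. The number called was 12 without sham 3 and cancer 3 (19% of genes), and then included Trpv1 (6.79), Trpa1 (6.95), P2rx3 (4.77), Asic3 (4.76) and Piezo2 (4.17). With the ganglion covariate the number was 10 (23% of genes), and Trpv1 and Trpa1 turned to -0.33 and -0.30 (adjusted p = 0.766 and 0.667). The calls gained under the covariate were Asic1 (0.37), Asic3 (0.75), Hcn2 (0.72), P2rx4, P2rx7, Trpm4 and Trpv6, while P2rx5 and Trpc5 were lost.

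P2rx4 and P2rx7, the ATP receptors of microglia and other immune cells, had higher nivolumab than cancer libraries without passing the test. P2rx4 had 24.5, 23.6 and 20.2 CPM in sham, 18.1, 23.4 and 20.5 CPM in cancer and 25.7, 25.7 and 27.6 CPM in nivolumab (0.35 ± 0.11 (SE), adjusted p = 0.0584). For P2rx7, whose product opens the pore that leads to interleukin-1 release, the values were 16.4, 21.7 and 13.3 CPM in sham, 16.6, 16.7 and 15 CPM in cancer and 25.1, 22.9 and 18.5 CPM in nivolumab (0.46 ± 0.17 (SE), adjusted p = 0.0924). Trpv6 was low in this tissue, at 4.4, 3.51 and 4.93 CPM in sham, 4.72, 3.27 and 4.37 CPM in cancer and 2.64, 2.7 and 2.33 CPM in nivolumab, with nivolumab below cancer (-0.69 ± 0.21 (SE), adjusted p = 0.0519). Trpm7 had 65.9, 61.1 and 66.6 CPM in sham, 66, 59.5 and 67.4 CPM in cancer and 57, 57.4 and 55.1 CPM in nivolumab (-0.19 ± 0.07 (SE), adjusted p = 0.0858). Of the 9 microglia markers, 1 was called higher in this comparison (8.63% of all genes were). All 9 had positive log2 fold changes, with a median of 0.34. Their part in the P2rx4 and P2rx7 values was not tested.

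Other marker lists moved in the same comparison: 7 of 11 dorsal horn neuron markers and 4 of 7 astrocyte markers were called lower, and 3 of 8 oligodendrocyte markers, 3 of 12 ganglion markers and 2 of 8 Schwann cell markers higher, where 8.6% of all genes were called lower and 8.63% higher. The dorsal horn neuron markers summed to 1438 to 1634 CPM in cancer and 1062 to 1149 CPM in nivolumab, and none was at 0 in any library. The part of these shifts in the lower Trpm3, Trpm2 and Trpc5 was not tested.

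Against sham, nivolumab changed 4 of 34 channel genes in the dorsal horn (8.51% of all genes tested): Hcn3 and Trpv2 rose (2, against 4.67% of genes) and Trpm3 and Trpm2 fell (2, against 3.84%). The median log2 fold change of the members was 0.11 (all genes, -0.003), with 16 genes without overlap (35.2% of genes), 10 higher and 6 lower (17% and 18.2%). At an unadjusted p under 0.05 there were 11 (26.1%). This comparison and the one with cancer share the nivolumab libraries, and the joint test of any difference among the 3 groups called 5 (13.9% of genes): Hcn3, Trpm2, Trpm3, Trpm8 and Trpv2.

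Hcn3 had 11.5, 12.6 and 13.3 CPM in sham, 15.7, 17.7 and 15.7 CPM in cancer and 20.5, 18.2 and 18.8 CPM in nivolumab. Every nivolumab library was above every cancer library, and every cancer library above every sham library; nivolumab differed from sham by 0.63 ± 0.10 (SE), adjusted p = 0.0101, and from cancer by 0.23 ± 0.10 (SE), adjusted p = 0.138. The difference from sham was 0.59 (adjusted p = 0.025) with the ganglion covariate, and it missed the threshold in 2 of 19 alternatives, without sham 1 and without nivolumab 1 (highest adjusted p = 0.0575). Hcn3 shares 711 exon bases with Pklr on the opposite strand and the strand setting of the counts is not given in the sources used here. Pklr had a mean of 0.335 to 0.531 CPM in the groups of this tissue.

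Trpv2, with the values above, differed from sham by 0.70 ± 0.17 (SE), adjusted p = 0.0394, and by 0.28 (adjusted p = 0.253) with the ganglion covariate. Trpm8 just missed the threshold, at 3.02 ± 0.78 (SE), adjusted p = 0.0521. Without sham 3 and cancer 3, 10 channel genes were called (9.99% of genes), and with the covariate 8 (15.7%). The number called was 0 without nivolumab 1, 1 without sham 1 and 2 without sham 2 or nivolumab 3. Trpm3 stayed called in each of these except without nivolumab 1, where its adjusted p was 0.0524.

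Markers of other cells were lower in nivolumab than in sham as well: 5 of 5 red blood cell markers, 4 of 11 dorsal horn neuron markers, 3 of 7 astrocyte markers and 1 of 8 oligodendrocyte markers were called lower (3.84% of all genes were), and 1 of 12 ganglion markers and 1 of 8 Schwann cell markers higher (4.67%). The red blood cell markers summed to 738 to 1274 CPM in sham, 109 to 221 CPM in cancer and 219.7 to 291 CPM in nivolumab, with none at 0 in any library. Their part in the differences of Trpm3, Trpm2, Hcn3 and Trpv2 was not tested.

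**Figure D4:**
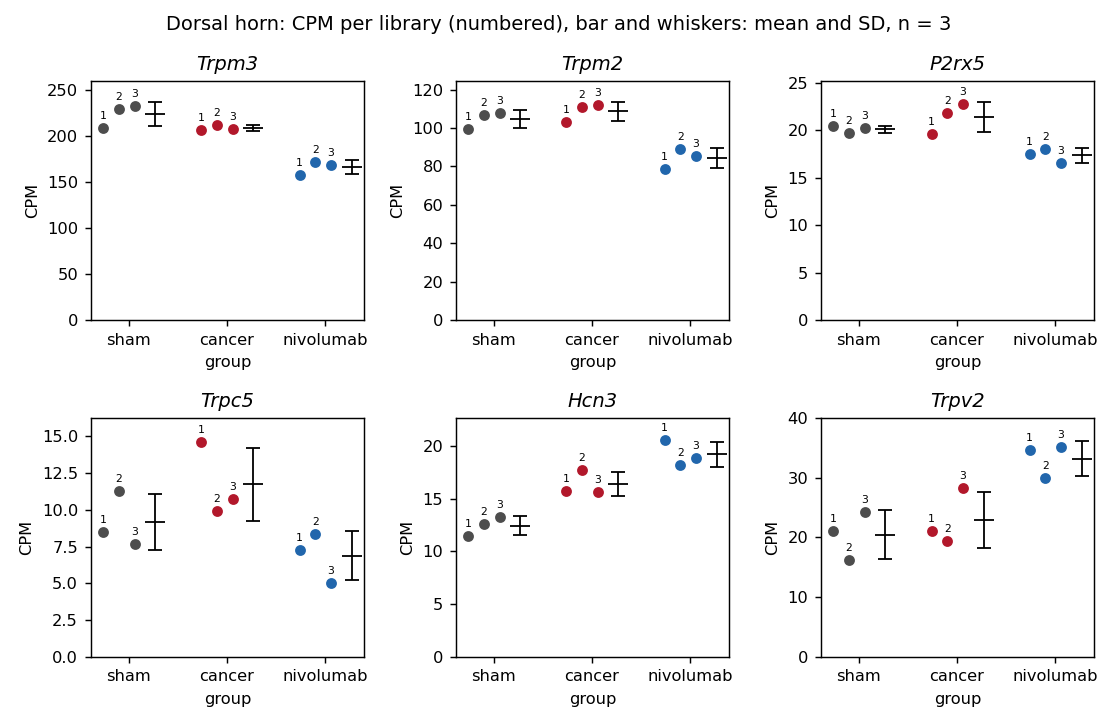
CPM in each dorsal horn library (numbered points; sham grey, cancer red, nivolumab blue) of 6 channel genes called in a comparison with nivolumab, with the mean and SD of each group (bar and whiskers, n = 3); axes start at 0. Nivolumab libraries are lowest in Trpm3 (158 to 172 CPM), Trpm2 and P2rx5, and highest in Hcn3 (18.2 to 20.5 CPM) and Trpv2 (29.9 to 35.1 CPM).

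Family by family, the P2X genes had 6 of 7 positive log2 fold changes between nivolumab and cancer, with a median of 0.35, and the TRPM genes 5 of 7 negative, with a median of -0.13. Hcn2 and Hcn4 were not called in any pairwise comparison. Hcn2 had 403, 453 and 269 CPM in sham, 367, 336 and 277 CPM in cancer and 404, 373 and 393 CPM in nivolumab. In Hcn2, sham 3 and cancer 3 were the lowest libraries of all. Asic1 had 108, 115 and 94.7 CPM in sham, 114, 115 and 95.3 CPM in cancer and 112, 124 and 118 CPM in nivolumab, and its nivolumab and cancer libraries differed little (0.13 ± 0.09 (SE), adjusted p = 0.363). Asic2 had 55.3, 58.6 and 64.7 CPM in sham, 63.6, 63.5 and 69.1 CPM in cancer and 76.3, 60.5 and 70.7 CPM in nivolumab (0.08 ± 0.09 (SE), adjusted p = 0.576). P2rx6 had 27.5, 22.9 and 24.7 CPM in sham, 19.6, 22.9 and 20.4 CPM in cancer and 22, 25.6 and 28 CPM in nivolumab (0.26 ± 0.11 (SE), adjusted p = 0.135). In all 3 genes the nivolumab libraries lay within or just outside the span of the others.

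The remaining genes of the dorsal horn were low or steady. Trpc1, a widely expressed partner subunit of other TRPC channels, ran from 24 to 29 CPM over the 9 libraries, Hcn4 from 17.2 to 23.5 CPM, Trpm4 from 13.8 to 21.3 CPM and Trpv4, an osmosensitive channel, from 2.48 to 5.57 CPM. Asic4 ran from 4.21 to 7.68 CPM, Trpc4 from 2.16 to 4.63 CPM, Trpc7 from 1.81 to 4.26 CPM, Trpv3 from 1.85 to 3.7 CPM, Trpm6 from 1.26 to 3.04 CPM and P2rx1 from 0.21 to 0.758 CPM. Asic4, Trpc1, Trpc4, Trpc7, Trpm4, Trpm6, Trpv3, Trpv4, Piezo1 and P2rx1 were not called in any comparison; their adjusted p between nivolumab and cancer ran from 0.292 to 0.899. Piezo1, the abundant Piezo of the colon, had 8.92, 10.9 and 7.85 CPM in sham, 9.51, 7.46 and 9.44 CPM in cancer and 6.5, 9.38 and 8.77 CPM in nivolumab.

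Genes that work with these channels were counted from 4 lists. Of 17 other purine signalling genes tested in the dorsal horn (receptors for ADP and adenosine, enzymes that break down ATP and channels that release it), 3 rose and 1 fell between nivolumab and cancer (8.63% and 8.6% of all genes did). P2ry1, an ADP receptor, rose, at 16.5, 18.4 and 16.9 CPM in sham, 22.9, 15 and 17.6 CPM in cancer and 32.7, 24.3 and 33.7 CPM in nivolumab (0.71 ± 0.17 (SE), adjusted p = 0.0204). So did Panx1, an ATP release channel (0.65 ± 0.14 (SE), adjusted p = 0.0144), and Entpd3, an ectonucleotidase (0.32 ± 0.08 (SE), adjusted p = 0.0225). Panx2 fell (-0.51 ± 0.08 (SE), adjusted p = 0.00373). Against sham, P2ry1, P2ry2 and Panx1 rose (3, against 4.67% of genes) and Panx2 fell (1, against 3.84%). The list's median log2 fold change between nivolumab and cancer was 0.33. The part of ganglion RNA in these purine signalling values was not tested.

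Of 10 other mechanosensitive channel genes tested, Kcnk2, the stretch-activated potassium channel TREK-1, fell between nivolumab and cancer (-0.36 ± 0.11 (SE), adjusted p = 0.0488), as did Pkd1 (-0.35 ± 0.07 (SE), adjusted p = 0.0112), which makes 2 of 10 against 8.6% of all genes, and 0 changed against sham. Pkd1 was not in the separate list of other TRP families, the mucolipins and polycystins. Among the 4 genes of that list tested and the 10 partner proteins of these channels tested, 0 were called in either comparison. None of these 4 lists of related genes had a gene called between cancer and sham in the dorsal horn. There, 1 purine signalling gene and 0 genes of the rest of the 4 lists reached an unadjusted p under 0.05. Marker lists did differ in that comparison: 4 of 5 red blood cell markers and 3 of 8 oligodendrocyte markers were called lower (0.228% of all genes were). Their part in the channel values was not tested.

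In the colon no channel gene was called in any pairwise comparison: 0 of 30 between cancer and sham (0% of all genes tested), nivolumab and cancer (0%) or nivolumab and sham (0%), and 0 of 30 in the joint test (0.0149%). At an unadjusted p under 0.05 there were 5 in the first comparison (10.9% of genes), 2 in the second (9.84%) and 2 in the third (6.45%). DESeq2 called Trpv6 between cancer and sham (2.86% of genes), between nivolumab and cancer (1.38%) and in the joint test (3.45%), and 0 channel genes between nivolumab and sham (1.15%).

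Trpv6, the calcium entry channel of intestinal epithelium that is induced by vitamin D, had 21.9, 53.8 and 22.9 CPM in sham, 0.61, 0.306 and 0.151 CPM in cancer and 0.397, 16.2 and 2.7 CPM in nivolumab. All 3 cancer libraries, with 14, 7 and 3 counts, were far below all sham libraries, with 668 to 1407; among the nivolumab libraries only the second came near sham. Between cancer and sham the log2 fold change was -6.52 ± 1.33 (SE), adjusted p = 0.181 by edgeR, and DESeq2 gave an adjusted p of 8.83e-08. Between nivolumab and cancer it was 4.17 ± 1.23 (SE), adjusted p = 0.414, with libraries that overlapped, and by DESeq2 the adjusted p was 0.0067. Its promoter is printed above.

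Trpm6, the magnesium uptake channel of colon epithelium, had 106, 90.4 and 60.5 CPM in sham, 48.2, 19.6 and 27.1 CPM in cancer and 28.6, 61.4 and 23.5 CPM in nivolumab. Its cancer libraries were all below sham (-1.45 ± 0.45 (SE), adjusted p = 0.32), and of the nivolumab libraries the second overlapped with sham (-1.17 ± 0.44 (SE), adjusted p = 0.717). P2rx1, an ATP receptor of smooth muscle, platelets and neutrophils, had 2.05, 2.56 and 2.12 CPM in sham, 8.1, 8.0 and 4.93 CPM in cancer and 6.75, 1.59 and 3.43 CPM in nivolumab, with cancer above sham and no overlap (1.63 ± 0.52 (SE), adjusted p = 0.335). In the same way Trpm2 had 3.82, 3.79 and 3.39 CPM in sham, 7.05, 16.6 and 4.67 CPM in cancer and 7.75, 3.65 and 7.0 CPM in nivolumab (1.36 ± 0.50 (SE), adjusted p = 0.383). Trpc4 had 1.03, 2.91 and 0.0685 CPM in sham, 3.83, 16.6 and 4.32 CPM in cancer and 3.14, 1.53 and 2.5 CPM in nivolumab (2.59 ± 1.06 (SE), adjusted p = 0.422). Between cancer and sham 7 genes did not overlap (18.8% of genes), 3 higher (7.38%) and 4 lower (11.4%), and the members' median log2 fold change was 0.44, against 0.00228 over all genes.

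Of the 30 channel genes tested in the colon, 12 were highest in cancer 2, against 24.6% of all genes tested, among them Trpm2, Trpc4, Trpm3 and Trpc1. Trpm3 had 0.995, 2.91 and 0.274 CPM in sham, 1.35, 14.3 and 2.61 CPM in cancer and 1.99, 1.23 and 1.1 CPM in nivolumab, and Trpc1 had 2.44, 5.13 and 1.64 CPM in sham, 3.27, 13.6 and 7.39 CPM in cancer and 5.2, 2.16 and 4.33 CPM in nivolumab. Enteric neuron markers were also highest in that library, at mean log2 CPM of 3.18, 4.34 and 0.83 in sham, 3.20, 5.63 and 3.79 in cancer and 4.17, 3.26 and 3.62 in nivolumab. Smooth muscle markers had 9.74, 11.15 and 7.33 in sham, 9.54, 10.36 and 11.36 in cancer and 8.88, 8.47 and 8.34 in nivolumab. With the smooth muscle mean as a covariate, the Trpm3 difference between nivolumab and cancer went from -2.06 to -0.52 (adjusted p = 0.528 and 0.983). Every cancer library had a higher smooth muscle mean than every nivolumab library, so this covariate cannot be told apart from the groups. The fit is therefore no test of the part of smooth muscle. For enteric neurons no such fit was run, and their part was not tested.

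Trpm5, which carries the depolarizing current of tuft cells and taste cells, had 31.2, 22.6 and 29.2 CPM in sham, 30.0, 5.07 and 32.4 CPM in cancer and 11.1, 2.98 and 5.56 CPM in nivolumab. The nivolumab libraries were all below sham (-2.06 ± 0.67 (SE), adjusted p = 0.666), and cancer 2 lay among them, apart from its own group. Markers of tuft cells, the chemosensory cells of gut epithelium, had mean log2 CPM of 2.76, 2.50 and 2.48 in sham, 2.38, 1.45 and 3.10 in cancer and 1.97, 0.29 and 1.06 in nivolumab, so that the same 4 libraries were the lowest. Of the 10 markers 9 were in the table; they summed to 116 to 149 CPM in sham, 170.3 to 244 CPM in cancer and 44.6 to 129 CPM in nivolumab, and by this sum cancer 2 (240.5 CPM) was not low. The part of tuft cell number in the Trpm5 values was not tested.

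**Figure D5:**
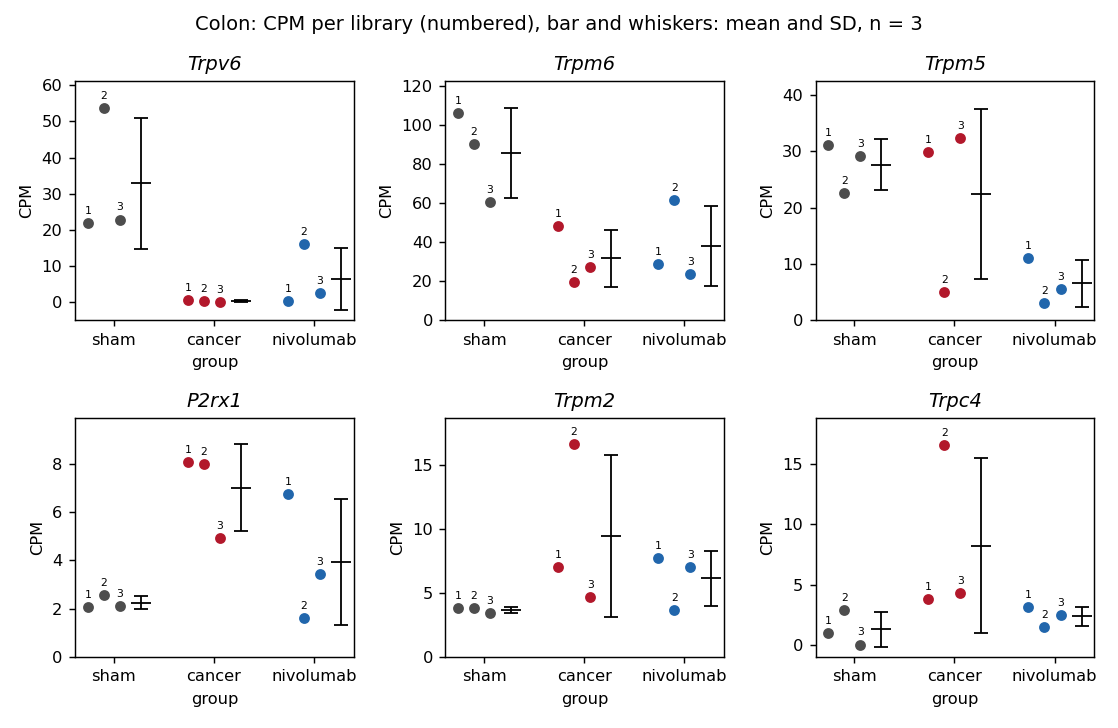
CPM in each colon library (numbered points; sham grey, cancer red, nivolumab blue) of 6 channel genes with small unadjusted p values, with the mean and SD of each group (bar and whiskers, n = 3). Trpv6 is at 21.9 to 53.8 CPM in sham and 0.151 to 0.610 CPM in cancer, and cancer 2 is the lowest cancer library in Trpm5 and the highest in Trpm2 and Trpc4.

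Between nivolumab and cancer in the colon 5 channel genes did not overlap (14.9% of genes), 1 higher (6.91%) and 4 lower (8.04%), with a median of -0.43 (all genes, 0.03). Between nivolumab and sham there were 2 (14.1% of genes), 0 higher and 2 lower (7.53% and 6.55%), with a median of 0.05 (all genes, 0.03). The ganglion channels were near the floor in this tissue: Trpv1 had 0 to 18 counts per library, P2rx3 4 to 23 and Asic3 6 to 40. Piezo2 was better covered, with 10.7, 18.5 and 4.56 CPM in sham, 9.14, 22.4 and 7.94 CPM in cancer and 7.07, 6.63 and 6.83 CPM in nivolumab (-0.92 ± 0.56 (SE), adjusted p = 0.574 between nivolumab and cancer). The most abundant channel, Trpm4, had 369, 176 and 302 CPM in sham, 199.9, 296 and 327 CPM in cancer and 449.5, 193 and 226 CPM in nivolumab. P2rx4 had 193, 165 and 184 CPM in sham, 152, 122 and 143 CPM in cancer and 195, 139 and 113 CPM in nivolumab, and it was lower in all cancer libraries than in sham (-0.39 ± 0.20 (SE), adjusted p = 0.516). Trpv3, known from keratinocytes, had 14, 27.9 and 11.6 CPM in sham, 10.1, 9.88 and 12.2 CPM in cancer and 1.99, 37.2 and 7.13 CPM in nivolumab, and so spanned a wide range within nivolumab. All 4 lists of related genes had 0 called in every colon comparison.

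The other colon genes overlapped between groups, apart from P2rx6, Trpv2 and P2rx3. Nivolumab was below cancer without overlap in P2rx6 and, narrowly, in Trpv2 (at most 10.1 against at least 10.5 CPM). The same held for Piezo2 and Trpc4, whose values are given above. P2rx3, near the floor at 4 to 23 counts per library, was lower in all cancer libraries (at most 0.402 CPM) than in sham (at least 0.545 CPM). Its nivolumab libraries (at least 0.431 CPM) were also above all cancer libraries. P2rx6 had 4.04, 1.53 and 1.23 CPM in sham, 3.22, 3.8 and 4.52 CPM in cancer and 1.03, 0.398 and 2.73 CPM in nivolumab (-1.44 ± 0.72 (SE), adjusted p = 0.528 between nivolumab and cancer), and P2rx2 4.65, 8.19 and 1.37 CPM in sham, 3.83, 16.6 and 7.29 CPM in cancer and 7.15, 3.38 and 4.2 CPM in nivolumab. The first was highest in cancer 3 and the second in cancer 2. Piezo1, which senses stretch in epithelium and vessels, had 45.1, 73.4 and 31.5 CPM in sham, 77.8, 73.9 and 52.9 CPM in cancer and 39.4, 51.6 and 68 CPM in nivolumab, and Trpm7 85, 59.6 and 75.8 CPM in sham, 67.8, 93.8 and 67.5 CPM in cancer and 93.7, 58.8 and 79 CPM in nivolumab. P2rx7 ran from 10.3 to 32 CPM, Hcn2 from 8.69 to 16.7 CPM, Trpv2 from 4.87 to 24.3 CPM and Trpv4 from 1.79 to 4.97 CPM. Trpa1, which in the gut marks serotonin-releasing enterochromaffin cells as well as nerve endings, ran from 0 to 4.66 CPM. Asic1 ran from 1.66 to 8.1 CPM, Asic2 from 0.343 to 5.94 CPM, Asic4 from 0 to 4.11 CPM, Hcn3 from 1.37 to 3.93 CPM, P2rx5 from 0.206 to 2.82 CPM and Trpc6 from 0.597 to 1.79 CPM.

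Whether the response of a channel gene differed between the tissues was tested over all 18 libraries on 14164 genes, 33 of them channel genes described here. For the cancer response 0 were called (0.155% of genes; 6 at an unadjusted p under 0.05) and for the nivolumab response 0 (0.127%; 6 at an unadjusted p under 0.05). DESeq2 called 1 in the former, Trpv6 (2.41% of genes), and 2 in the latter, Piezo2 and Trpv6 (5.28%). The difference of log2 fold changes, colon minus dorsal horn, was -6.42 ± 1.26 (SE), adjusted p = 0.0701 for the cancer response of Trpv6, and 4.78 ± 1.24 (SE), adjusted p = 0.0938 for its nivolumab response. For the nivolumab response it was -3.94 ± 1.17 (SE), adjusted p = 0.126 for Piezo2, one of the 9 genes that followed Scn10a in the dorsal horn. Leaving out colon nivolumab 1 brought Trpv6 past the threshold in both responses, and leaving out colon nivolumab 2 in the cancer response.

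By position (GENCODE M21, GRCm38), Trpv1, Trpv3 and P2rx5 lie close together on chromosome 11, with gaps of 6145 bases between Trpv1 and Trpv3 and 61606 bases between P2rx5 and Trpv1. In the dorsal horn these genes had log2 fold changes between nivolumab and cancer of 2.62, -0.30 and -0.30 (adjusted p = 0.321, 0.456 and 0.042). P2rx7 and P2rx4 lie 16111 bases apart on chromosome 5, and Trpv6 and Trpv5 15767 bases apart on chromosome 6. The genes named most often above are Trpm3 (ENSMUSG00000052387.16, chr19:22139046-22995410, plus strand), Trpm2 (ENSMUSG00000009292.18, chr10:77907722-77970563, minus strand), Hcn3 (ENSMUSG00000028051.10, chr3:89146074-89160196, minus strand), Trpv1 (ENSMUSG00000005952.15, chr11:73234292-73261242, plus strand), Trpm8 (ENSMUSG00000036251.16, chr1:88277661-88389293, plus strand), P2rx3 (ENSMUSG00000027071.14, chr2:84998583-85037462, minus strand) and Trpv6 (ENSMUSG00000029868.13, chr6:41620624-41636405, minus strand), all protein coding. Some channel genes share exon bases with a gene on the opposite strand, whose reads could not be separated if strand was not used. Piezo1 shares 2441 bases with Ctu2, P2rx6 shares 554 with Slc7a4, Trpm5 shares 220 with Tssc4 and P2rx3 shares 51 with Ssrp1. Trpm3 shares 351 bases with C330002G04Rik and 277 with Gm27151, and Trpm8 shares 388 with 4930453O03Rik. Asic4 shares 493 bases with Gm37264 and Trpm1 shares 12 with Gm44722. The partners of Trpm3, Trpm8, Asic4 and Trpm1 are not among the symbols counted in either tissue.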

How the data were processed

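Bulk RNA-seq gene counts of the colon and of the spinal dorsal horn were used, 9 libraries each, in groups of 3. The authors deposited 1 table of read counts per tissue, which hold whole-number counts per gene symbol with no normalization. Per the labels' protocols, total RNA was extracted with TRIzol, and cDNA was made with a SmartScribe reverse transcriptase kit. Per the submitters' processing notes, the build was GRCm38, and HISAT2, StringTie, Trimmomatic and FastQC 0.11.5 were used. The counting step, its annotation and its strand setting are not stated there. With an unstated strand, reads of a gene and of an antisense neighbour may be mixed.

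Counts were scaled by TMM and genes with low counts were removed (filterByExpr by group). Each tissue was fitted as 1 model of 3 groups with edgeR 4.0.16 (R 4.3.3, quasi-likelihood, robust, two-sided), and p-values were adjusted over every gene tested in a fit (Benjamini-Hochberg; called under 0.05). An interaction term over all 18 libraries compared the tissues. List means are of log2 CPM with a prior count of 2. Levels per kb use exon lengths of GENCODE M21. Alternatives were DESeq2 1.42.0, other scalings and filters, a replicate block, marker scores as covariates and leaving out libraries. The replicate numbers were checked for pairing by correlating libraries' deviations from their group means: in the dorsal horn all 3 same-numbered pairs of cancer and nivolumab were over 0.1 (0.192, 0.276 and 0.19), so the blocked values stand beside that comparison; in no other comparison did all 3 pairs pass. The code was tested on simulated data. Depth leaves counting error small beside the spread between libraries for all but genes near the floor of 3 counts. No 2 libraries of a group agreed within sampling noise.

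Full values were given for genes past the threshold, for the 3 smallest p where fewer passed, for channels known from ganglia, and for the 6 highest genes of each tissue in sham. From other lists, genes past the threshold were named. The members, lists, motifs and this rule were chosen with earlier results of these data known, so none is independent support. Of the 39 genes, 2 are not reported here and are left out of the counts of channel genes, but not out of the fits or of the shares of all genes.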

Additional observations from a re-analysis of the deposited data

How the results depend on the processing

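DESeq2 in place of edgeR called 1 channel gene in the colon between cancer and sham, 1 between nivolumab and cancer and 1 in the joint test, each time Trpv6. In the dorsal horn DESeq2 called 1 between cancer and sham, 10 between nivolumab and cancer (23.5% of genes), 7 between nivolumab and sham (14.4%) and 9 jointly (24%), and in the comparison of tissues 1 for the cancer response and 2 for the nivolumab response. With the ganglion marker mean as a covariate the dorsal horn counts were 10 (nivolumab vs cancer; 23% of genes), 8 (nivolumab vs sham; 15.7%) and, jointly, 9 (21.2%). Without sham 3 and cancer 3 they were 12 (19% of genes), 10 (9.99%) and, jointly, 12 (17.5%). Leaving out 1 library gave 2 to 9 genes between nivolumab and cancer, 0 to 5 between nivolumab and sham, 1 to 6 jointly, and 0 to 1 for each of the responses compared between tissues. The joint count was 3 without sham 2, cancer 1, cancer 2 or nivolumab 2, 1 without nivolumab 1 and 2 without nivolumab 3. The remaining settings (2 other scalings, 2 other filters, no robust estimates and fits of the compared groups alone) kept each count within 1.5 times of the one reported or at the same 0.

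Signs were followed only for genes called in a comparison or, where fewer than 3 were, those with its 3 smallest p. Ganglion channels were also followed in the dorsal horn comparisons with nivolumab. Among the genes followed, signs turned in 5 genes, each uncalled with the sign it turned to. Between nivolumab and cancer, the ganglion covariate gave -0.33 for Trpv1, -0.30 for Trpa1 and -0.083 for Asic2. Between nivolumab and sham Hcn2 was -0.11 without both sham 3 and cancer 3. Leaving out 1 library put Hcn2 between -0.13 and 0.21, and P2rx6 between -0.070 and 0.112.

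Replicate numbers recur across groups, but no label says what they pair. Same-numbered libraries correlated above 0.1 in 3 of 9 pairs in the colon and 6 of 9 in the dorsal horn, and 0 and 3 libraries correlated best with their own number in both other groups. A replicate block in the fit gave 11 (nivolumab vs cancer; 22.5% of genes), 7 (nivolumab vs sham; 12.4%) and, jointly, 10 genes (19.2%) in the dorsal horn and 1 for the nivolumab response between tissues (0.678%). Depth limits the genes near the floor: in the colon Trpv1, P2rx3 and Asic3, in the dorsal horn P2rx1. In the dorsal horn libraries that nearly lacked Scn10a it also limits Trpv1, Trpa1, Trpm8 and P2rx2, and so their fold changes.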
